A study of Mus musculus with 10 samples.

Results

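This account concerns the genes of secreted and cell-surface metalloproteases of the ADAMTS, MMP and tolloid families, the related ADAMTSL proteins and the TIMP inhibitors, in lymphatic endothelial cells (LEC) sorted from mouse melanomas. Members were all rows of the deposited gene table with a symbol of Adamts or Adamtsl and a number, Mmp with a number and at most 1 letter, Timp with a digit, or Bmp1, Tll1 or Tll2. The rule found 47 of 23510 rows. These were 17 Adamts genes, 5 Adamtsl genes, 19 Mmp genes, 4 Timp genes, Bmp1 and Tll1, and 0 rows carried the symbol Tll2. Of the 47, 42 had 10 or more counts in at least 5 libraries, and the same 42 passed the low-count filter of the test. The remaining 5 were Mmp8, Mmp10, Mmp24, Mmp27 and Adamts16.

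The cells came from C57BL/6N mice in which fragments of MT-ret melanoma had grown on the ventral flank. Mice received an intraperitoneal injection of control IgG or of an antibody against angiopoietin-2 (Ang2), a ligand of the endothelial receptor Tie2, and were killed 12 hours later. Both groups carried the same tumour, and the labels give neither age nor sex of the mice nor the gate of the sort. Each group had 5 libraries, made from 0.5 ng of RNA each and described as independent biological replicates.

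Matrix metalloproteases (MMPs) cut collagens, gelatin and many cell-surface proteins, and the membrane-type MMPs are held at the cell surface. ADAMTS proteases cut proteoglycans such as versican, process procollagens or act on other matrix proteins, while ADAMTSL proteins have a similar build but lack the protease domain and bind to microfibrils. The tolloid proteases Bmp1 and Tll1 remove the C-terminal propeptides of fibrillar procollagens, activate lysyl oxidase and cut the BMP antagonist chordin. TIMPs bind the active site of MMPs, and TIMP2 together with the membrane-type protease MMP14 also serves to activate the gelatinase MMP2. In lymphatic endothelium, MMP14 is known to cut the hyaluronan receptor LYVE1, and ADAMTS3 activates the lymphatic growth factor VEGF-C.

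Library totals ran from 38090933 to 83850341 gene counts. Markers of LEC were high in every library: the summed level of 9 markers, Prox1 and Lyve1 among them, was 17959 to 21261 CPM (gene counts scaled to a common library total with TMM) in IgG and 14950 to 19985 CPM in anti-Ang2 libraries. The sum of 12 melanoma markers was 652, 2464, 399.9, 2631 and 866 CPM in IgG 1 to 5, and 8069, 5981, 6884, 2574 and 1659 CPM in anti-Ang2 1 to 5. The groups overlapped in this sum, anti-Ang2 1, 2 and 3 standing above all IgG libraries. They overlapped in the other sums too, which were 51.3 to 204 CPM in IgG and 72.2 to 273 CPM in anti-Ang2 for macrophages, 197 to 924 and 213 to 743 CPM for fibroblasts, 60.7 to 239 and 153 to 442 CPM for pericytes, and 5960.1 to 8747 and 4383 to 7036 CPM for blood endothelium. The neutrophil sum was at most 0.768 CPM, and its 7 markers in the table were each at 0 in at least 5 libraries. Keratinocyte and T cell sums were at most 4.06 and 36.2 CPM. In the blood endothelial sum, Plvap, Cldn5 and Kdr had the highest IgG means (4022, 1655 and 1349.7 CPM). The other markers of that list had IgG means of 198 CPM (Cd34) or less, Flt1 being at 146 and Sox17 at 17.0 CPM. Which cells the RNA of these markers came from was not tested. Of single markers, 5 were called by edgeR: the LEC chemokine Ccl21a was lower (means of 883 CPM under IgG and 379 CPM under anti-Ang2, adjusted p = 0.00447), as was the blood endothelial Kdr (1349.7 and 777 CPM, 0.00781), while Kcnj8 of pericytes (23.4 and 62.3 CPM, 0.00545), Esm1 of blood endothelium (74.7 and 204 CPM, 0.00857) and Pmel of melanoma (51.4 and 250.3 CPM, 0.0496) were higher. The groups were apart in these except Pmel, and also in the LEC marker Pdpn (276 and 229 CPM, 0.151), and the part of these markers' cells in the results below was not tested beyond the fits with marker sums given last. The other pericyte markers went both ways without a call. Means under anti-Ang2 were higher for Cspg4 (53.2 and 172 CPM), Abcc9 and Acta2, and lower for Rgs5 (7.83 and 3.29 CPM), Pdgfrb, Notch3, Des and Higd1b. Cspg4 was at 274, 203 and 231 CPM in anti-Ang2 1, 2 and 3, the libraries with the highest melanoma sums, and at most 104 CPM elsewhere. Its anti-Ang2 mean of 172 CPM was a large part of the mean pericyte sum of 323 CPM, and whether its RNA came from pericytes was not tested. Because anti-Ang2 1, 2 and 3 had the highest melanoma sums, results of members are also given below without these libraries where that ends a call. For the genes that act with the members, only the counts of calls are given without these libraries. In such bulk libraries, fewer cells of a type and less RNA per cell cannot be told apart.

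Inhibitors stood at the top of the order of levels. On the scale of deposited FPKM, which is corrected for transcript length, Timp2 was highest with a mean of 633 (561 to 699) in IgG libraries and 458 (398 to 507) in anti-Ang2 libraries. Timp3 followed with 269 (235 to 358) and 164 (144 to 200.3). Next came the membrane-type protease Mmp14 with 223 (169 to 299.5) and 166 (105 to 208), Adamts1 with 184 (88.5 to 212) and 115 (87.1 to 156), and Bmp1 with 98.1 (86.1 to 111) and 67.1 (63.2 to 73.8). Timp2 lay above Timp3 in every library, whereas the ranges of Timp3, Mmp14 and Adamts1 overlapped in anti-Ang2 libraries. The 4 TIMPs together made up 49.8% to 61.5% of the summed FPKM of all members in IgG and 49.0% to 60.2% in anti-Ang2 libraries. The MMP share was 13.7% to 19.5% and 14.8% to 26.2%, and the ADAMTS share 12.4% to 20.3% and 14.9% to 17.5%. At the other end, 22 of the 47 members had a mean FPKM over all libraries of under 1.

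**Figure D1:**
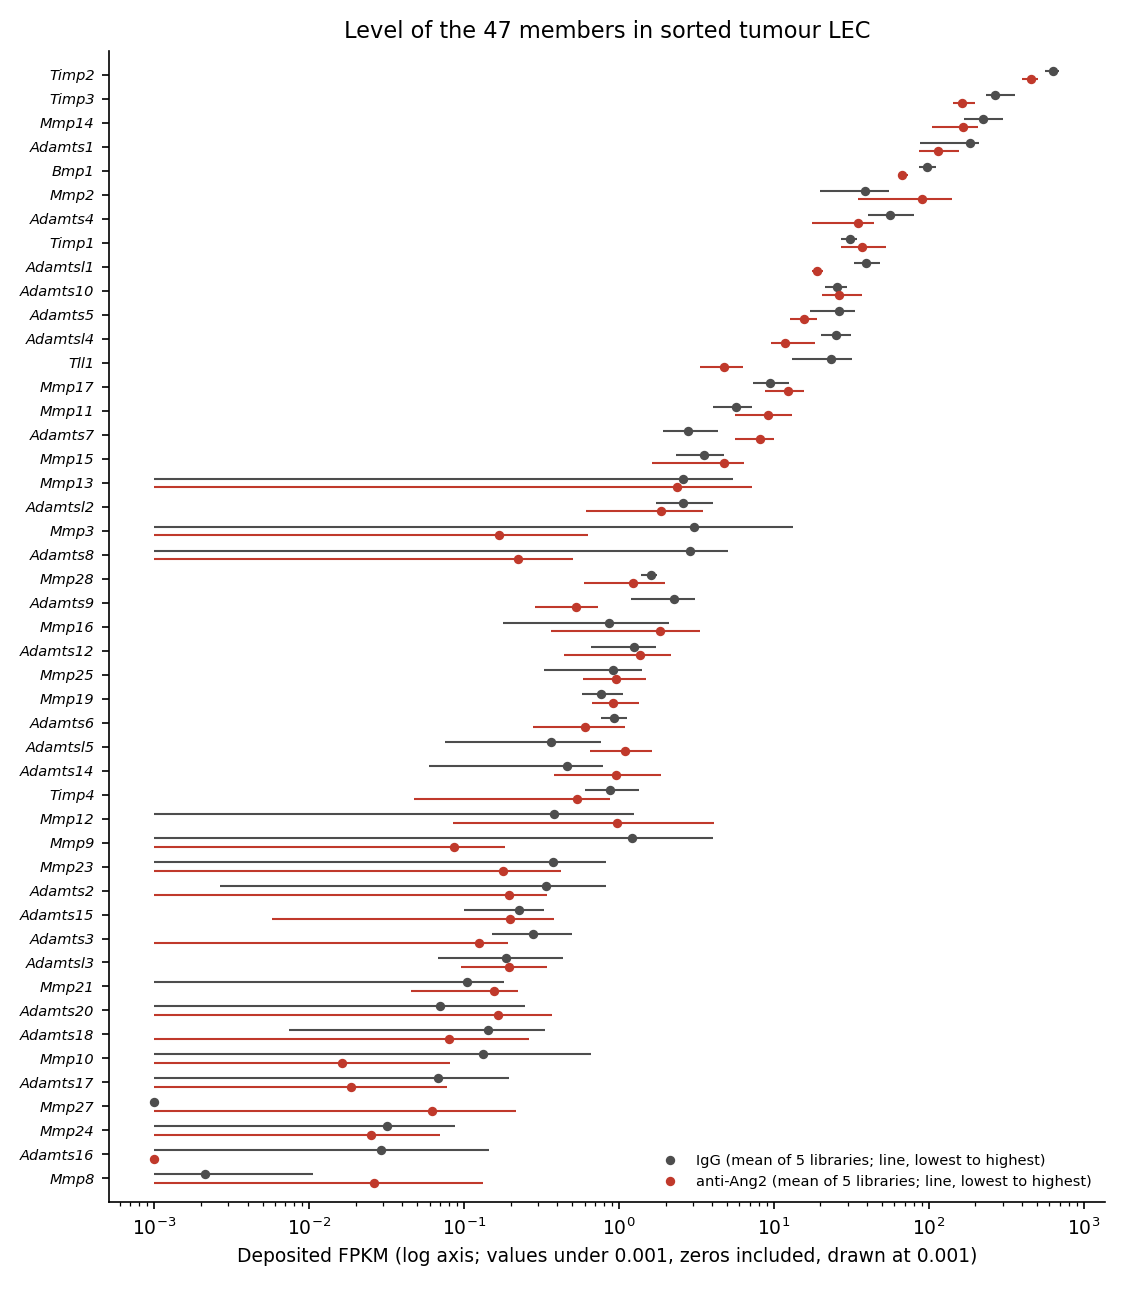
Deposited FPKM (horizontal, log axis) of the 47 members, ordered by their mean over all libraries; points are means of 5 libraries and lines run from the lowest to the highest library. Timp2 stands highest in both groups, and libraries without a read are drawn at the left end of the lines.

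Of the 42 tested members, 9 changed after anti-Ang2 (edgeR quasi-likelihood test, Benjamini-Hochberg adjusted p under 0.05 over all 16240 tested genes), that is 21.4% of them, beside 4.13% of all tested genes. These families were proposed with earlier results of these data known, so that the shares are a description. Lower were 8 members (background 2.8%): Tll1, Adamts9, Adamtsl4, Adamtsl1, Adamts5, Timp3, Bmp1 and Timp2. Higher was 1 member, Adamts7 (background 1.34%). Of the 42 tested members, the ranges of the groups were apart in 8, beside 6.1% of all tested genes. The calls rest on the same values, and these 8 were the called members other than Adamts5. In 7 of them the anti-Ang2 libraries were the lower ones (background 3.76%) and in Adamts7 the higher ones (background 2.34%). The median log2 fold change of the tested members was -0.46, beside 0.01 over all tested genes, with 25 members below 0 and 17 above. In the authors' deposited table, 11 members had an adjusted p under 0.05, namely these 9 in the same direction and Mmp2 and Mmp11, both higher.

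**Figure D2:**
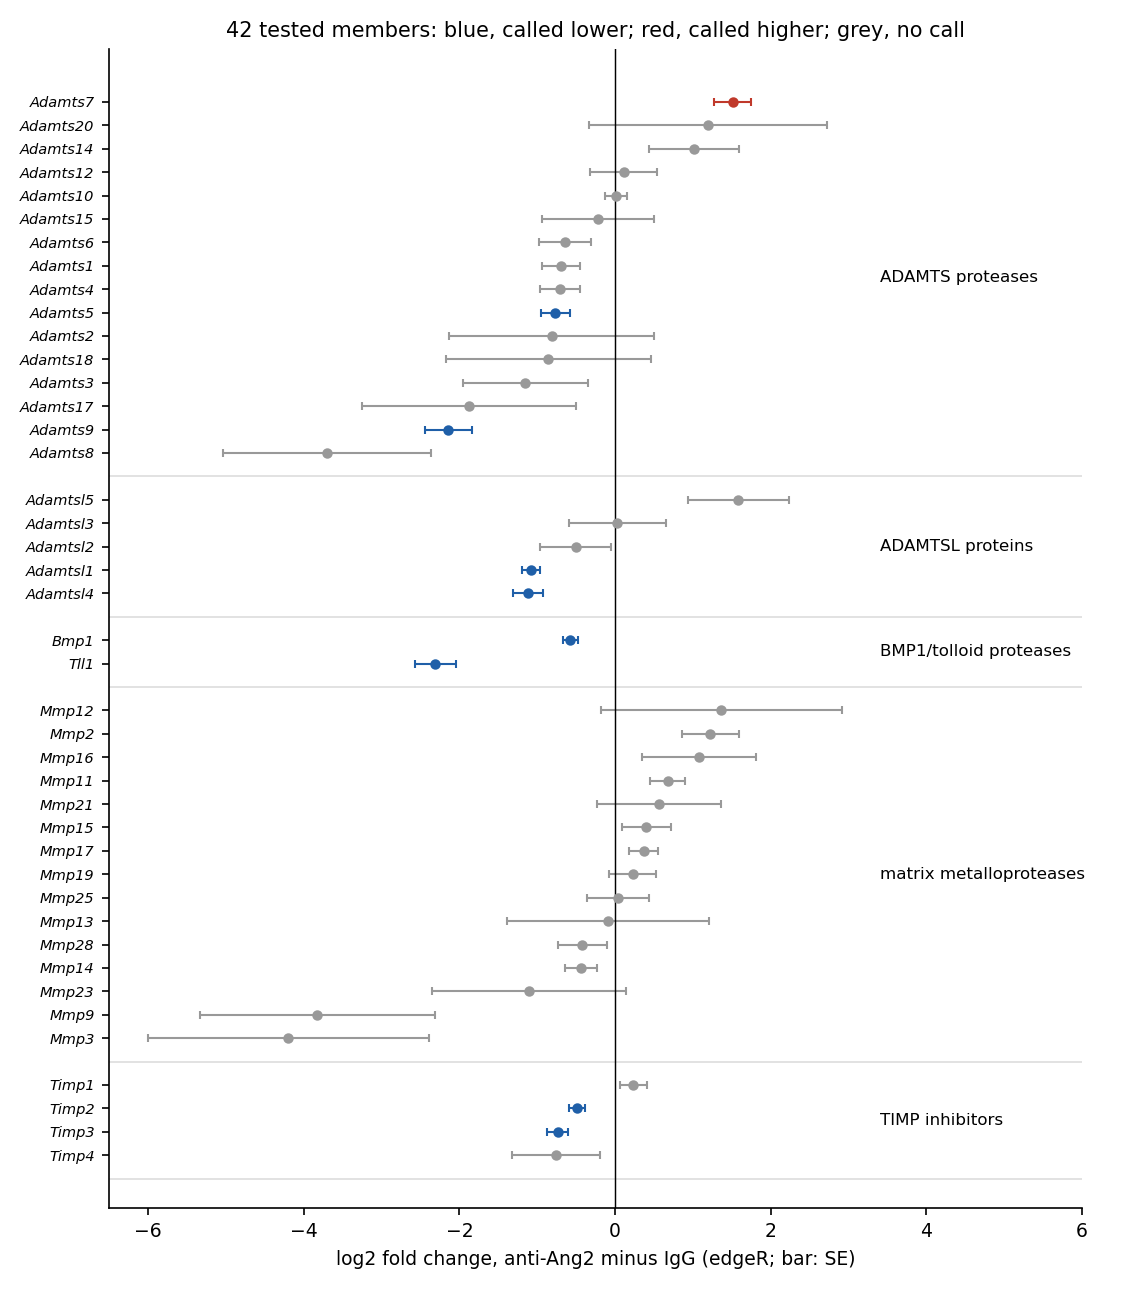
Log2 fold change (horizontal, anti-Ang2 minus IgG) of the 42 tested members by family, with its SE as a bar. Both tolloid genes lie left of 0 at -2.31 and -0.57, the MMPs lie on both sides without a call, and Adamts7 at 1.51 is the only member called higher.

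For 5 of the 9 members, the RefSeq promoter table used here (GRCm38.p6) held an entry, and the 250 bases before the start site were searched on both strands. Promoters of Adamtsl1, Adamts7, Bmp1 and Adamts5 were not analysed here. All 5 of these genes fell. The windows of Adamts9, Adamtsl4 and Timp3 are shown 5′ to 3′ on the strand of the gene, because they lie wholly or mostly outside the span GENCODE gives to the gene. Capitals mark matches to GGGCGG, the letters bound by Sp1 factors, or its reverse complement. The Adamts9 window is chr6:92943535-92943784 (minus strand), the Adamtsl4 window chr3:95687918-95688167 (minus strand) and the Timp3 window chr10:86300162-86300371 (plus strand), the last without 40 bases that GENCODE counts to the gene.
Adamts9: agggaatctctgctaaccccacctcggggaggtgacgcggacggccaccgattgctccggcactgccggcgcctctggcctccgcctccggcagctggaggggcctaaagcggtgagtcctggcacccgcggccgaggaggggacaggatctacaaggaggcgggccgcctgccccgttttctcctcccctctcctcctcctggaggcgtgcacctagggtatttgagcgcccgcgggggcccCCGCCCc
Adamtsl4: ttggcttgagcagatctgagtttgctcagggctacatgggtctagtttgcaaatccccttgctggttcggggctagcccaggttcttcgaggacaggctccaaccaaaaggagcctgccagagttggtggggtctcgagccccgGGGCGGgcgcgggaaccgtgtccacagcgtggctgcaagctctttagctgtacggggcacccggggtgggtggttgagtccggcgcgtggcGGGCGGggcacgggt
Timp3: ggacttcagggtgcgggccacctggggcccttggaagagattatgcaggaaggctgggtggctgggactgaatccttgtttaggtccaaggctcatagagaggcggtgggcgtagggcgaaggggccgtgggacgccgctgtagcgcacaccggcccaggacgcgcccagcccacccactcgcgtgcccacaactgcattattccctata
The GC content of the 250 bases was 71.2% for Adamts9, 64.4% for Adamtsl4, 65.6% for Timp3 and 68% for Timp2, but 43.2% for Tll1, beside a median of 52.4% over 32851 promoter windows. GGGCGG was found in the windows of Adamts9, Adamtsl4, Timp3 and Timp2, that is 4 of 5 beside 32.7% of all windows. The match of Timp3 lies in the 40 bases not shown, and the windows of Timp2 and Tll1, which lie inside the span GENCODE gives to these genes, are not shown. The AP-1 letters TGANTCA (6.75% of all windows), FOXO letters TGTTTAC (3.17%), ETS letters CCGGAAG (6.91%) and TATA letters TATAAA (12.4%) were in none of the 5 windows. The TEAD letters GGAATG (12.6%) were in that of Tll1. No 2 of these motifs overlapped in the windows, and a match describes letters, not binding.

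Both tolloid proteases fell. Tll1 was at 96.2, 213, 243, 137 and 195 CPM in IgG 1 to 5 and at 46.7, 46.4, 25.1, 27.6 and 32.9 CPM in anti-Ang2 1 to 5. The groups were apart by a wide margin, the lowest IgG library being above the highest anti-Ang2 library. The mean fell from 177 ± 59.3 to 35.7 ± 10.3 CPM (SD, n = 5 each), a log2 fold change of -2.31 ± 0.27 (SE; edgeR adjusted p = 0.00111), or 4.95-fold lower. Bmp1, the more abundant of the pair, read 312, 409, 366, 308 and 402 CPM in IgG 1 to 5 against 233, 245, 229, 257 and 245 CPM in anti-Ang2 1 to 5. Its anti-Ang2 libraries lay close together (coefficient of variation 4.72%, against 13.3% in IgG) and below all IgG libraries. The change was smaller than that of Tll1, with a log2 fold change of -0.57 ± 0.09 (SE; edgeR adjusted p = 0.00597), or 1.49-fold, and -0.53 ± 0.14 without anti-Ang2 1, 2 and 3 (adjusted p = 0.111). In GENCODE release M21 (mm10), Tll1 (ENSMUSG00000053626.5) spans chr8:64014931-64206271 on the minus strand and Bmp1 (ENSMUSG00000022098.9) spans chr14:70474558-70520234 on the minus strand, exons, introns and untranslated regions included.

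Of the 5 ADAMTSL genes, Adamtsl1 and Adamtsl4 fell and 3 did not pass the test. Adamtsl1 (chr4:85514172-86428385, plus strand) read 399, 558, 601, 439 and 451 CPM in IgG 1 to 5 and 216, 251, 229, 215 and 249 CPM in anti-Ang2 1 to 5. It had the smallest p of all members, with a log2 fold change of -1.08 ± 0.12 (SE; edgeR adjusted p = 0.001001), and its anti-Ang2 libraries had an SD of 7.54% of their mean. Adamtsl4, a partner of fibrillin microfibrils (chr3:95676201-95687917, minus strand), was at 108, 108, 83.0, 86.5 and 134 CPM in IgG 1 to 5 and 73.5, 40.7, 43.8, 37.3 and 43.6 CPM in anti-Ang2 1 to 5. Anti-Ang2 1 stood above the other anti-Ang2 libraries but still below all IgG libraries. Its log2 fold change was -1.12 ± 0.19 (SE; edgeR adjusted p = 0.00793). Adamtsl2, which also binds fibrillin, split the anti-Ang2 group: anti-Ang2 1, 2 and 3 lay at 6.27, 4.99 and 8.99 CPM, below all IgG libraries (13.99 to 30.6 CPM), whereas anti-Ang2 4 and 5 lay at 25.8 and 24.2 CPM (log2 fold change -0.50 ± 0.45, adjusted p = 0.639). Without anti-Ang2 4 and 5 it was called lower, as the 1 Adamtsl gene that this fit added. Adamtsl5 ranged from 0.358 to 3.56 CPM in IgG and from 2.86 to 7.47 CPM in anti-Ang2 (1.59 ± 0.65, adjusted p = 0.222). Its highest libraries in each group, IgG 2 and 4 and anti-Ang2 3, 1 and 2, were those with the highest melanoma sums, and with that sum as a covariate the log2 fold change was 0.21 ± 0.46 (adjusted p = 0.882). Adamtsl3 was near 1.4 CPM in both groups (means 1.42 and 1.45 CPM).

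Among the 7 ADAMTS proteases that cut versican and related proteoglycans, Adamts9 and Adamts5 fell, 5 had a p under 0.05 before adjustment (beside 18.2% of all tested genes), and none rose (edgeR; DESeq2 added Adamts1 to the lower calls, beside 5.94% of genes lower with that tool). Adamts9 (chr6:92772699-92943492, minus strand) was at 16.9, 39.4, 45.9, 38.6 and 25.5 CPM in IgG 1 to 5 and 8.05, 4.37, 5.76, 9.28 and 10.3 CPM in anti-Ang2 1 to 5. IgG 1 was the lowest control and still stood above every anti-Ang2 library. The log2 fold change was -2.14 ± 0.30 (SE; edgeR adjusted p = 0.00271), or 4.41-fold lower. Without anti-Ang2 1, 2 and 3 it was -1.78 ± 0.38 (adjusted p = 0.0721). Adamts5 (chr16:85856173-85901828, minus strand) read 130.0, 228, 259.8, 257 and 162 CPM in IgG 1 to 5 and 98.2, 125, 109.6, 134 and 143 CPM in anti-Ang2 1 to 5. The groups overlapped because IgG 1 lay among the anti-Ang2 libraries. Its log2 fold change was -0.77 ± 0.19 (SE; edgeR adjusted p = 0.0465). This call was lost in 8 of 10 fits that left out 1 library, namely without IgG 2 (adjusted p = 0.106), 3 (0.1235), 4 (0.0971) or 5 (0.0507) or anti-Ang2 1 (0.106), 2 (0.0886), 3 (0.112) or 4 (0.0675), and also without anti-Ang2 1, 2 and 3 together (-0.59 ± 0.27, 0.322).

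Adamts1, which lies 53.1 kb from Adamts5 on chromosome 16 and was the most abundant ADAMTS gene, did not pass. It read 443, 1094, 1099, 1058 and 1062 CPM in IgG 1 to 5 and 791, 628, 607, 479 and 431 CPM in anti-Ang2 1 to 5. IgG 1 stood far below the other controls and inside the anti-Ang2 range, while the other 4 controls lay above all anti-Ang2 libraries. Its log2 fold change was -0.70 ± 0.24 (SE; edgeR adjusted p = 0.145) with all libraries and -0.88 ± 0.16 (adjusted p = 0.0115) without IgG 1. Of the 10 fits that left out 1 library, this was the 1 with a call, the adjusted p reaching 0.291 in the others. Adamts4 ranged from 184 to 377 CPM in IgG and from 78.7 to 217 CPM in anti-Ang2 (-0.71 ± 0.26, adjusted p = 0.171). Adamts8 was at 17.7, 22.7, 0, 14.5 and 9.18 CPM in IgG 1 to 5 and at 0.0193, 1.85, 0, 2.15 and 0.893 CPM in anti-Ang2 1 to 5. Because IgG 3 held no read of Adamts8, the groups overlapped, and the fitted -3.70 ± 1.34 carried an adjusted p of 0.159. Its neighbour Adamts15, 20.1 kb away on chromosome 9, and Adamts20 were at most at 3.68 CPM in any library and did not pass (adjusted p = 0.921 and 0.766).

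Adamts7, a protease that cuts cartilage oligomeric matrix protein (COMP), was the 1 member that rose. It was at 14.1, 26.9, 17.2, 14.99 and 12.1 CPM in IgG 1 to 5 and 59.7, 54.9, 38.05, 58.2 and 32.8 CPM in anti-Ang2 1 to 5. All anti-Ang2 libraries lay above all IgG libraries. The mean rose from 17.1 ± 5.81 to 48.7 ± 12.4 CPM, a log2 fold change of 1.51 ± 0.24 (SE; edgeR adjusted p = 0.00507), or 2.85-fold, and 1.40 ± 0.31 without anti-Ang2 1, 2 and 3 (adjusted p = 0.0784). The gene (chr9:90163069-90208071, plus strand) shares exonic bases with Tbc1d2b on the other strand, and the library kit does not mark the strand, so that reads there cannot be told apart. Tbc1d2b was at 59.7 ± 9.75 and 63.5 ± 16.7 CPM (log2 fold change 0.09 ± 0.18, adjusted p = 0.862). Adamts12, the closest relative of Adamts7, was at 7.62 ± 3.04 and 8.24 ± 4.64 CPM and did not pass (0.11 ± 0.43, adjusted p = 0.934).

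The procollagen N-proteinases Adamts2, Adamts3 and Adamts14 were low and did not pass. Adamts3, the VEGF-C activator, was at 0.779, 0.978, 2.65, 1.97 and 0.997 CPM in IgG 1 to 5 and at 0.405, 0.998, 0.999, 0.896 and 0 CPM in anti-Ang2 1 to 5. At most 109 counts stood behind any of these values, the groups overlapped and the log2 fold change was -1.15 ± 0.80 (SE; adjusted p = 0.512). Adamts2 ranged from 0.0243 to 7.83 CPM in IgG and from 0 to 3.22 CPM in anti-Ang2, and Adamts14 from 0.292 to 4.01 and from 1.84 to 9.30 CPM. Adamts10, which associates with fibrillin, was well expressed and close to equal in the groups at 137 ± 15.6 and 138 ± 31.6 CPM (log2 fold change 0.01 ± 0.14, adjusted p = 0.975). Adamts6, its relative, was at 4.34 ± 0.777 and 2.79 ± 1.34 CPM (-0.64 ± 0.33, adjusted p = 0.356). Adamts17 and Adamts18 were at most at 3.33 CPM in any library, and Adamts16 had reads in IgG 5 alone (39 counts).

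**Figure D3:**
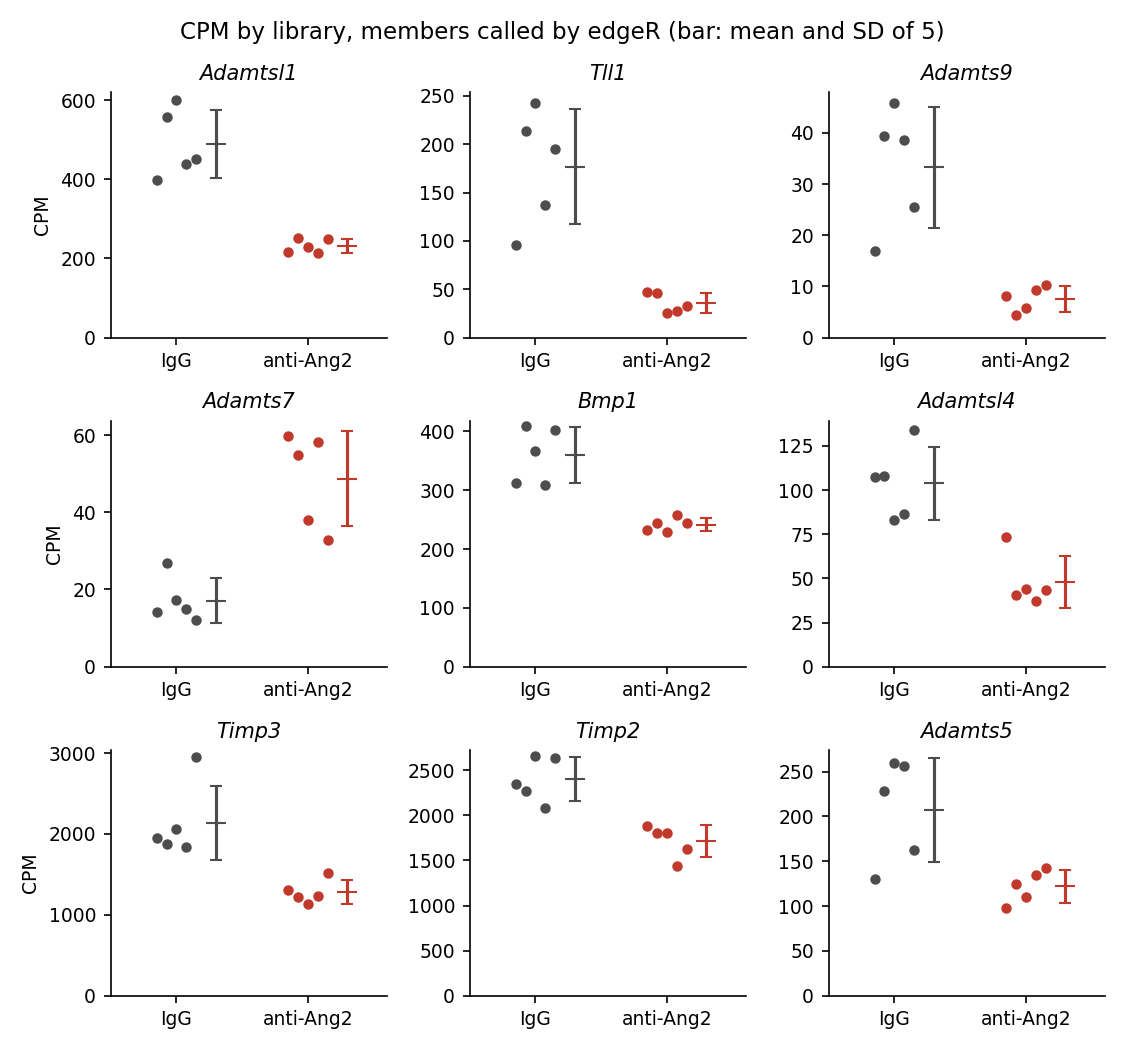
CPM (vertical, from 0) in each library of the 9 members called by edgeR, with the mean and SD of 5 libraries beside the points. In Tll1 the lowest IgG library (96.2 CPM) stands well above the highest anti-Ang2 library (46.7 CPM). In Adamts7 the gap is narrow, from 26.9 CPM in IgG 2 to 32.8 CPM in anti-Ang2 5. In Adamts5 IgG 1 at 130.0 CPM lies among the anti-Ang2 libraries.

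No MMP gene passed the test: of 15 tested, edgeR called 0, with 4 at an unadjusted p under 0.05 (Mmp2, Mmp11, Mmp9 and Mmp3), and DESeq2 called 2 higher (Mmp2 and Mmp11). Over all genes, 18.2% had an unadjusted p under 0.05, and DESeq2 called 5.46% higher. Mmp14, the most abundant, was at 685, 986, 1259.8, 963 and 759.8 CPM in IgG 1 to 5 and 784, 911, 719, 600.3 and 422 CPM in anti-Ang2 1 to 5. The groups overlapped and the log2 fold change was -0.44 ± 0.21 (SE; edgeR adjusted p = 0.305). The other membrane-type genes ranged in mean from 18.6 and 24.6 CPM for Mmp15 and 61.1 and 78.8 CPM for Mmp17 down to Mmp23, Mmp24 and Mmp25, none above 5.09 CPM in any library. Mmp16 ranged from 1.51 to 17.4 CPM in IgG and from 2.94 to 27.4 CPM in anti-Ang2 (1.08 ± 0.73, adjusted p = 0.497).

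Mmp2, the gelatinase that MMP14 activates, was at 116, 169, 65.0, 178 and 104 CPM in IgG 1 to 5 and 453, 323, 379, 211 and 109.7 CPM in anti-Ang2 1 to 5. Anti-Ang2 1 to 4 lay above all IgG libraries and anti-Ang2 5 among them. The log2 fold change was 1.22 ± 0.37 (SE; edgeR adjusted p = 0.0913), and 1.43 ± 0.30 without anti-Ang2 5 (adjusted p = 0.0241). Anti-Ang2 1, 3 and 2 had both the highest Mmp2 levels and the highest melanoma marker sums, in the same order, and within IgG the 2 libraries with the highest Mmp2 levels, 4 and 2, had the highest melanoma sums too. With the melanoma sum as a covariate the log2 fold change of Mmp2 was -0.03 ± 0.23 (adjusted p = 0.967), and without anti-Ang2 1, 2 and 3 it was 0.33 ± 0.38 (adjusted p = 0.723). Mmp11, a furin-activated stromelysin, was at 14.2 ± 3.42 and 22.6 ± 6.55 CPM (0.67 ± 0.22, adjusted p = 0.123). It shares exonic bases with Chchd10 on the other strand (27.7 ± 19.5 and 110.2 ± 60.0 CPM), so that its counts are uncertain.

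Several other secreted MMPs were high in 1 library only. Mmp9, the second gelatinase, was at 0, 0.193, 4.08, 2.64 and 14.4 CPM in IgG 1 to 5 and at most 0.618 CPM in anti-Ang2 libraries. Mmp3, a stromelysin, was at 24.0 CPM in IgG 5 and at most 2.46 CPM elsewhere. IgG 5 also held the highest count of Mmp10 (45) and had the highest fibroblast marker sum of all libraries (924 CPM). Neither Mmp9 (edgeR adjusted p = 0.1997) nor Mmp3 (0.242) was called with all libraries, and neither was with that sum as a covariate. As there was no call to lose, that fit cannot tell, and the part of fibroblast RNA in these values was not tested. Mmp12, the macrophage elastase, was at 28.5 CPM in anti-Ang2 1 and at most 8.52 CPM elsewhere. The macrophage marker sum was 248 CPM in anti-Ang2 1 and highest at 273 CPM in anti-Ang2 3, where Mmp12 was at 0.903 CPM. Among IgG libraries, IgG 1 had both the highest macrophage sum (204 CPM) and the highest Mmp12 level (8.52 CPM). The collagenase Mmp13 ranged from 0 to 13.9 CPM in IgG and from 0 to 19.7 CPM in anti-Ang2, with 2 libraries at 0. The collagenase Mmp8, mainly a neutrophil gene, had at most 16 counts in a library and Mmp27 at most 24. Mmp13, Mmp12, Mmp3, Mmp10, Mmp8 and Mmp27 are neighbours on chromosome 9 with gaps of 2.9 to 76.3 kb, and their highest libraries differed: anti-Ang2 2 for Mmp13, anti-Ang2 1 for Mmp12, IgG 5 for Mmp3 and Mmp10, and anti-Ang2 3 for Mmp8 and Mmp27 by count. Mmp19, Mmp21 and Mmp28 were at or under 7.12 CPM in every library and did not pass (adjusted p = 0.776, 0.788 and 0.542).

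The 2 abundant inhibitors, Timp2 and Timp3, fell, and Timp1 and Timp4 did not pass. Timp2 (chr11:118301069-118355740, minus strand) read 2353, 2275, 2664, 2084 and 2639 CPM in IgG 1 to 5 and 1884, 1807, 1804, 1441 and 1626 CPM in anti-Ang2 1 to 5. Every anti-Ang2 library lay below every IgG library, with little spread in either group (10.3% and 10.5% of the mean). The log2 fold change was -0.49 ± 0.10 (SE; edgeR adjusted p = 0.0188), or 1.40-fold lower, and the call was lost without IgG 3 (-0.45 ± 0.10, adjusted p = 0.0601). Timp3, the inhibitor that binds to the matrix and also blocks ADAMTS proteases and ADAM17 (chr10:86300372-86349506, plus strand), was at 1945, 1873, 2064, 1844 and 2947 CPM in IgG 1 to 5 and 1307, 1216, 1127, 1233 and 1522 CPM in anti-Ang2 1 to 5. The groups did not overlap, and IgG 5 stood above the other controls. Its log2 fold change was -0.74 ± 0.14 (SE; edgeR adjusted p = 0.0123), and -0.59 without IgG 5, still called. Without anti-Ang2 1, 2 and 3 it was -0.64 ± 0.20 (adjusted p = 0.169).

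Timp1, the inducible inhibitor, was at 25.6, 25.7, 29.8, 22.8 and 31.0 CPM in IgG 1 to 5 and 27.1, 33.9, 45.3, 30.0 and 22.4 CPM in anti-Ang2 1 to 5, with overlapping groups (log2 fold change 0.23 ± 0.17, edgeR adjusted p = 0.542). Timp4 was at 3.36, 4.65, 3.596, 7.61 and 5.98 CPM in IgG 1 to 5 and 3.65, 1.83, 0.269, 4.78 and 4.36 CPM in anti-Ang2 1 to 5 (-0.76 ± 0.57, adjusted p = 0.548). Timp4 shares exonic bases with Syn2 on the other strand (26.3 ± 3.25 and 17.0 ± 3.44 CPM), which makes its counts uncertain. Timp3 shares some with Syn3, but Syn3 was under 1 CPM in the mean of either group. The summed FPKM of the 4 TIMPs was 827 to 1064 in IgG and 598 to 708 in anti-Ang2 libraries, whereas that of the 19 MMPs was 226 to 346 and 166 to 379.

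The genes that act with these enzymes were described from lists written with textbook roles. Over 6 lists, 59 genes were tested, of which 3 rose and 4 fell (edgeR; background 1.34% and 2.8%). Leaving out 1 library took the lower count to 2 (IgG 2 or 5, or anti-Ang2 1 or 3) or 1 (IgG 3). Without anti-Ang2 1, 2 and 3, 2 genes of these lists were called higher and 1 lower. Of 9 ADAM sheddases, Adam10 fell (means of 634 ± 47.6 and 463 ± 47.4 CPM, log2 fold change -0.45 ± 0.09, adjusted p = 0.0151). The call of Adam10 was lost without IgG 3 (adjusted p = 0.0506). Adam9 and Adam17, the next most abundant, did not pass, at a mean FPKM of 60.7 and 21.5. Of 11 inhibitors, inducers, convertases and clearance receptors, Reck, a membrane-anchored MMP inhibitor, fell from 39.8 ± 3.87 to 29.0 ± 2.48 CPM (-0.46 ± 0.10, adjusted p = 0.0255). Its call was lost in 6 of 10 fits that left out 1 library, without IgG 2, 3, 4 or 5 or anti-Ang2 1 or 3 (adjusted p up to 0.0771). Cd63, a tetraspanin and receptor of TIMP1, rose from 260.1 ± 26.8 to 435 ± 53.7 CPM (0.74 ± 0.10, adjusted p = 0.00255). Bsg, the MMP inducer, and Tfpi2 did not pass, at a mean FPKM of 498 and 44.4.

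Of 12 substrates and partners, Fbn1, the fibrillin that several ADAMTSL proteins bind, fell by 1.08 ± 0.11 on the log2 scale (edgeR adjusted p = 0.000972), with means of 379 ± 33.2 and 179 ± 29.6 CPM. Its libraries read 353, 382, 412, 339 and 410.2 CPM in IgG 1 to 5 and 174, 225, 153, 189 and 156 CPM in anti-Ang2 1 to 5, without overlap, and it fell as did Adamtsl1 and Adamtsl4. Fibronectin (Fn1, 1.21 ± 0.15, adjusted p = 0.00155) and the thrombospondin Thbs1 (1.14 ± 0.21, adjusted p = 0.0121) rose. Versican (Vcan), the main substrate of the proteoglycan-cutting group, was at 3.37 ± 1.38 and 5.68 ± 0.488 CPM (adjusted p = 0.171) and COMP, the substrate of Adamts7, at 49.0 ± 20.7 and 26.5 ± 7.14 CPM (adjusted p = 0.123), and neither passed. Pofut2, which adds the fucose on thrombospondin repeats of these proteins, did not pass. Among 8 genes of plasminogen activation, S100a10 fell (-0.47 ± 0.11, adjusted p = 0.0458), a call lost in 8 of 10 fits that left out 1 library (all but those without IgG 4 or anti-Ang2 5, with values as high as 0.122). The abundant Anxa2 and Serpine2 did not pass, at a mean FPKM of 454 and 136. Neither the 4 tested procollagen and VEGF-C processing genes nor the 15 inducers held a call by edgeR (2 and 5 at an unadjusted p under 0.05; DESeq2 called 1 and 3 higher), beside the 18.2% and 5.46% of all genes given above. Of the former Pcolce, Vegfc and Lox were most abundant (mean FPKM 8.67, 3.68 and 0.880), and of the latter the AP-1 genes Fos, Junb and Jun (652, 562 and 445). With the melanoma marker sum as a covariate, Fbn1 alone of the 7 called pathway genes passed (-1.05 ± 0.17, adjusted p = 0.0287), with Fn1 at 0.0553, Thbs1 at 0.0818 and Cd63 at 0.0845.

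The melanoma marker sum had a mean of 5033 ± 2783 CPM in anti-Ang2 and 1403 ± 1059.7 CPM in IgG libraries, with 12 of 12 markers tested and 1 of them called. With it as a covariate, 2 of the 9 members kept their call, Tll1 at a log2 fold change of -2.37 ± 0.38 (edgeR adjusted p = 0.0289) and Adamtsl1 at -1.02 ± 0.16 (0.0289). The other 7 missed the threshold, each with a wider SE: Adamts9 at -2.001 ± 0.38 (0.0512), Adamtsl4 at -1.33 ± 0.28 (0.0651), Bmp1 at -0.54 ± 0.14 (0.111), Adamts7 at 1.18 ± 0.31 (0.132), Timp2 at -0.47 ± 0.15 (0.209), Timp3 at -0.54 ± 0.18 (0.234) and Adamts5 at -0.73 ± 0.26 (0.254). Their estimates were also smaller in size than with no covariate, except for Adamtsl4 (-1.12 with no covariate). The drop was largest for Adamts7 (from 1.51) and Timp3 (from -0.74). With the macrophage sum as a covariate 5 of the 9 kept their call, Timp2 (-0.50 ± 0.12, 0.0926), Timp3 (-0.61 ± 0.15, 0.101), Bmp1 (-0.46 ± 0.10, 0.0596) and Adamts5 (-0.51 ± 0.20, 0.308) missing it. With the fibroblast sum as a covariate 8 kept it, Adamts5 (-0.77 ± 0.20, 0.0629) missing it. The markers in the fibroblast sum went both ways without a call. Means under anti-Ang2 were higher for Dcn (144 and 332 CPM), Lum and Pdgfrl, and lower for the others, Col1a1 (91.9 and 22.6 CPM) among them. Which of these markers follows fibroblast RNA here was not tested. Without anti-Ang2 1, 2 and 3, 4 members kept their call (Adamtsl1, Tll1, Adamtsl4 and Timp2), and the other 5 have the values given with each gene. Without anti-Ang2 4 and 5 all 9 kept it, and Mmp2 (1.59 ± 0.28, 0.0145) and Adamtsl2 were added. In each of these fits the 9 members had the direction given above, and the part of melanoma RNA in their levels was not tested beyond them.

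**Figure D4:**
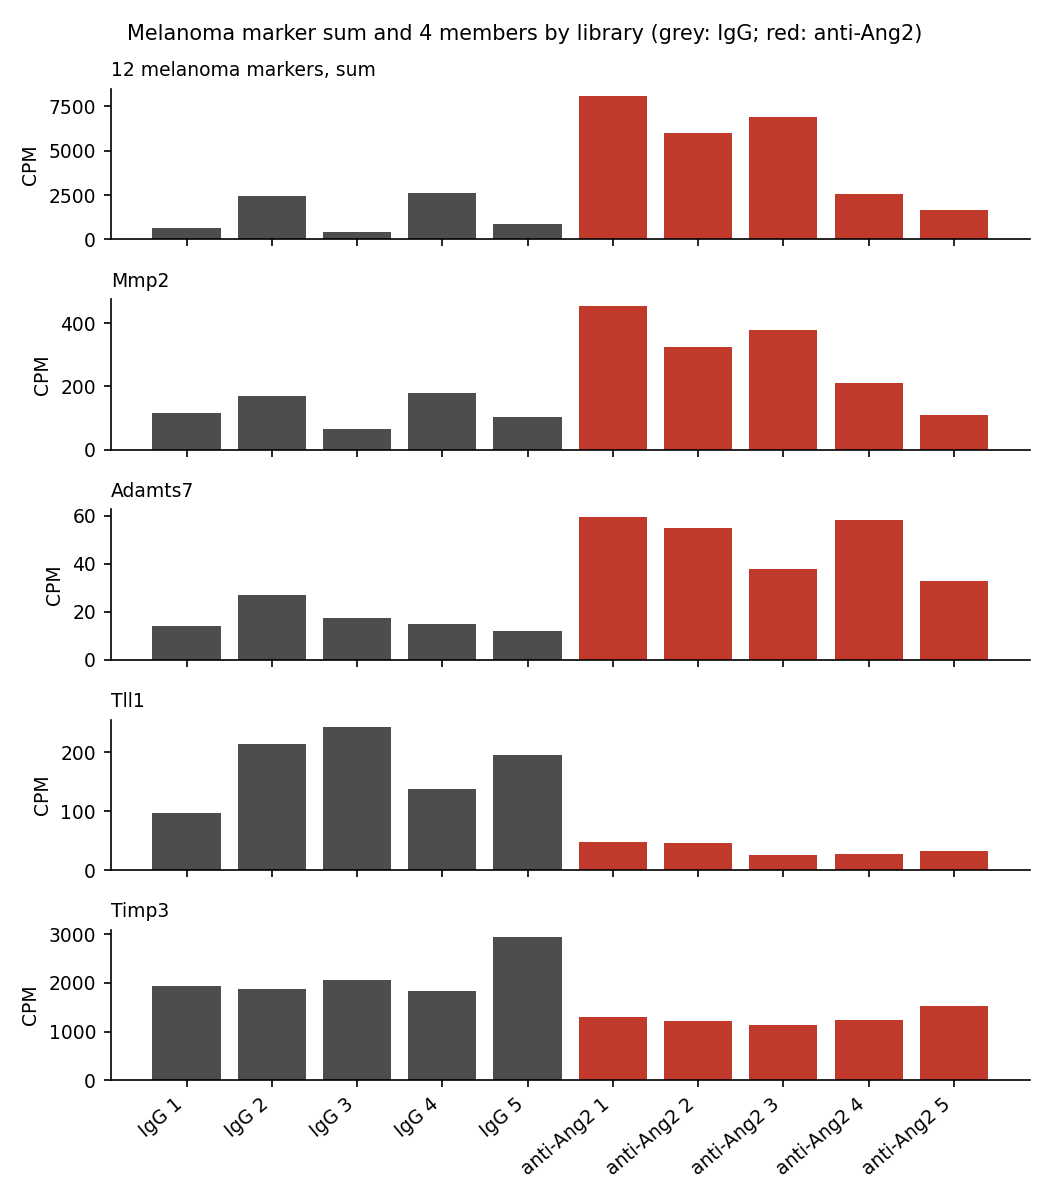
Summed CPM of 12 melanoma markers (top) and CPM of Mmp2, Adamts7, Tll1 and Timp3 in each library; bars start at 0. Mmp2 and the marker sum are both highest in anti-Ang2 1 (453 and 8069 CPM), 3 and 2. Tll1 is lower in every anti-Ang2 library than in every IgG library.

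**Figure D5:**
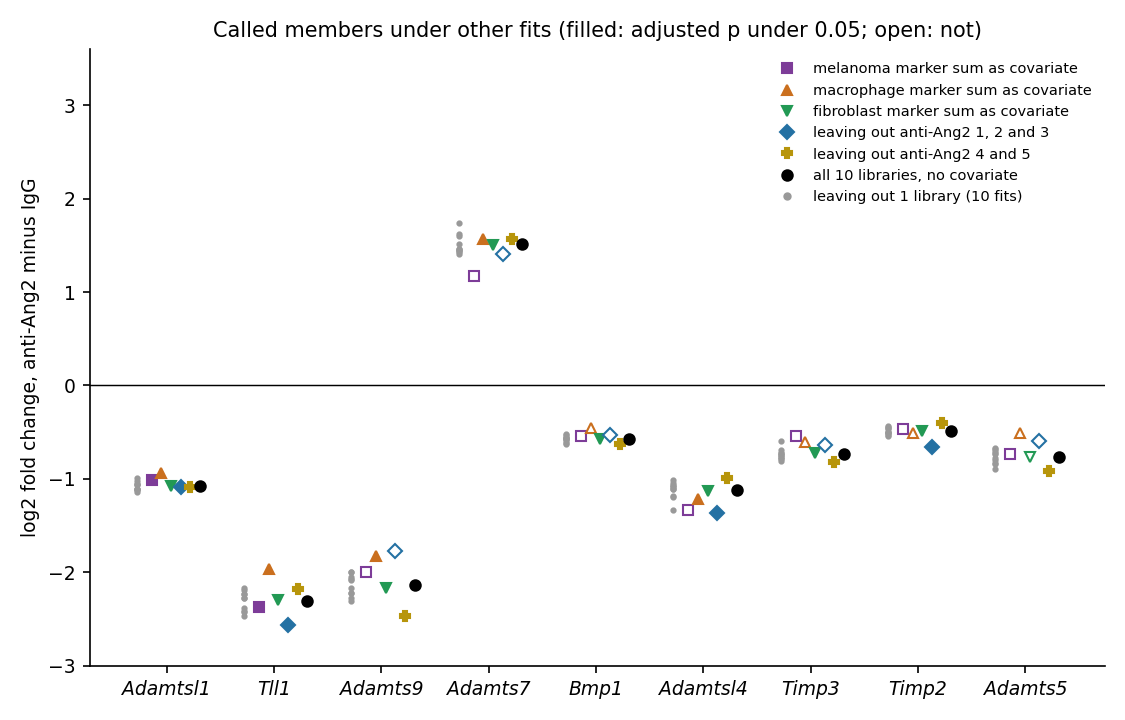
Log2 fold change (vertical) of the 9 called members with all 10 libraries, with each library left out, with sets of libraries left out and with marker sums as covariates; filled symbols have an adjusted p under 0.05 and open ones do not. Tll1 and Adamtsl1 are filled in the 5 fits with a covariate or a set left out, and none of the 9 changes sign; the small points of fits without 1 library carry no such mark.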

How the data were processed

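RNA of sorted tumour LEC was amplified by SMART-Seq v4, per the labels' protocols, a kit without strand information. STAR, featureCounts and DESeq2 were used with mm10, per the submitters' processing notes. Their versions, the annotation and the strand option are not given in the sources used here. Raw counts, FPKM, TPM, a mean signal of scaled counts (baseMean), log2 fold changes and p-values were deposited by the authors in 1 table. The deposited TPM sum to more than TPM can, so they are a relative score, not used. There were 0 unused columns of per-sample values.

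Groups follow the treatment label. Counts were tested with edgeR 4.0.16 in R 4.3.3 (TMM, filterByExpr with a minimum count of 10 and total of 15, quasi-likelihood F test, two-sided) over 16240 genes, called at an adjusted p under 0.05, and checked on simulated counts. DESeq2 1.42.0 was an alternative. SE were derived from the F statistic, FPKM served only for levels between genes, and the spread between libraries may include technical variation. Coordinates are those of GENCODE M21, where 37 member IDs matched exactly and 10 differed in version. Of 47 members, 32 had a RefSeq promoter entry.

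Members and lists were chosen with earlier results of these data known. Values per library are given for called members, the TIMPs, Adamts3, Bmp1, Tll1 and the 5 members of highest FPKM. Others shown by library, such as Mmp2, Mmp9, Adamts8, Adamtsl2 and Fbn1, and the uncalled Vcan and Comp were chosen after their values were seen.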

Additional observations from a re-analysis of the deposited data

Results flagged for a closer look

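In 3 cases, 1 of the 5 libraries of a group stood apart from the others in a member named above. Timp3 was at 2947 CPM in IgG 5, with the next IgG library at 2064 CPM. Adamtsl4 was at 73.5 CPM in anti-Ang2 1, with the next anti-Ang2 library at 43.8 CPM. Adamts1 was at 443 CPM in IgG 1, with the next IgG library at 1058 CPM. These 3 came from 28 groups of 5 libraries (14 members), where chance flags about 1 in 20. Over all 42 tested members there were 7 such cases, 3 of them in IgG 5 (Timp3, Mmp3 and Mmp9).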

How the results depend on the processing

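Of the 9 called members, Tll1 and Adamtsl1 kept their call under all 20 alternatives, Adamtsl4 under 19, Adamts7 and Adamts9 under 18, Bmp1, Timp2 and Timp3 under 17 and Adamts5 under 6, each with the same direction throughout. The 8 lower members became 4 without anti-Ang2 1, 2 and 3, 2 with the melanoma covariate and 4 with the macrophage covariate, and 6 to 9 without 1 library. The 1 higher member became 3 with DESeq2, 2 without anti-Ang2 4 and 5, 0 without anti-Ang2 1, 2 and 3 (edgeR) and 0 with the melanoma covariate, and 1 to 2 without 1 library (2 without anti-Ang2 5). The median log2 fold change of tested members was -0.64 without anti-Ang2 1, 2 and 3 and -0.62 with the melanoma covariate, and -0.53 to -0.38 without 1 library. Timp1 changed sign without anti-Ang2 1, 2 and 3 (-0.0516) and Mmp2 with the melanoma covariate (-0.0312). The cause of these shifts was not tested.

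Over all genes, 217 higher and 454 lower calls became 810 and 880 with DESeq2, 55 and 178 without anti-Ang2 1, 2 and 3, 19 and 71 with the melanoma covariate and 44 and 162 with the macrophage covariate. The higher calls were 531 without anti-Ang2 4 and 5. Without 1 library they ranged from 82 to 326 (IgG 2 117, IgG 3 82, IgG 5 131, anti-Ang2 1 131, 2 134, 3 113, 5 326) and the lower calls from 259 to 468 (IgG 2 292, IgG 3 259). The 3 higher pathway genes became 8 with DESeq2, 10 without anti-Ang2 4 and 5 and 0 with the melanoma covariate, and 3 to 4 without 1 library. The 4 lower ones became 1 without anti-Ang2 1, 2 and 3, 1 with the melanoma covariate, 1 with the macrophage covariate and 1 to 4 without 1 library.

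Titles number the libraries 01 to 05 in both groups. Same-numbered libraries did not deviate together (correlations of -0.12, 0.11, -0.11, -0.09 and -0.04 for numbers 1 to 5), so the numbers are not taken as pairs. With the replicate block, 82 genes were higher and 268 lower, and 1 and 7 members and 3 and 1 pathway genes, Adamts5 at an adjusted p of 0.0712. Members under 1 CPM rest on few reads, and none of them was called.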
